A study of Rattus norvegicus with 24 samples.

Results

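Aged rat muscle in a second period of disuse was compared with aged rat muscle in its first. The 6 left tibialis anterior muscles compared are those that GEO's labels give as Repeated TTX (3 limbs, 3 animals) and as TTX at the Atrophy time point (3 limbs, 3 animals), out of 24 limbs of 12 animals in the series. All were male Fischer 344 rats aged 23 ± 1 months. A cuff on the left common peroneal nerve, fed by an osmotic mini-pump, delivered tetrodotoxin (TTX), which closes off the sodium channels that carry nerve impulses, so that the ankle dorsiflexors were silenced while the tibial nerve went on working. First disuse limbs had 6 to 7 days of TTX, and repeated disuse limbs had the same, then 9 days without TTX, a replaced pump and 5 to 6 further days of TTX. The right limb of each animal carried no cuff and no TTX. Control below means the right limbs of all 9 TTX-treated animals, 3 of which were taken at the recovery time point, and the limbs of 3 sham-operated animals entered no comparison. The 2 groups also differ in the length of the last TTX period, the time since the first operation and a second anaesthesia, which cannot be told apart from the repetition. The paper also reports a significant loss of body weight after repeated disuse but not after first disuse, which cannot be told apart from the repetition either. Each limb is called by its group and number, and numbers carry no order.

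A muscle fibre reads the activity of its nerve through calcium entry and electrical activity. When impulses stop, fibres restart genes that are normally held down outside the endplate, among them the subunits of the muscle acetylcholine receptor, under control of myogenic factors that bind short DNA motifs called E-boxes. They also raise ubiquitin ligases and proteasome subunits, which break down contractile proteins, and reduce genes of oxidative metabolism. The sarcolemma is sealed after tears by vesicles that gather around TRIM72 (also called MG53), with caveolin-3 and dysferlin as partners.

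Before the genes, the 6 limbs themselves need to be set side by side, because first disuse limb 2 stood apart. The values are CPM (reads of a gene per 1000000 reads in the limb). In units of 1000000 reads, low values gave an inferred depth between 26.03 and 30.7 in the first disuse limbs and between 23.9 and 28.2 in the repeated disuse limbs. At 2798 rows (1 row is 1 gene or transcript entry) that were higher in the left than in the right limb of the repeated disuse animals, the median left minus right difference of log2(CPM + 1) was 1.11, 0.047 and 0.50 in first disuse animals 1, 2 and 3. In repeated disuse animals 1, 2 and 3, which chose these rows, it was 0.85, 1.12 and 1.02. Over all 13354 rows tested for this choice the median was 0.386, -0.004 and 0.190 in first disuse animals 1, 2 and 3. In repeated disuse animals 1, 2 and 3 it was 0.114, 0.331 and 0.286 over all rows. At 708 rows lower in the left limb of the repeated disuse animals, the medians in the first disuse animals were -0.995, -0.079 and -0.45. These rows are 3506 of 13354 tested (26.3%), and each repeated disuse animal moved their number (5384 without animal 1, 2065 without animal 2 and 890 without animal 3). After rescaling by the trimmed mean of M values (TMM), which leaves extreme ratios out of the scaling, 1161 rows were higher and 1242 lower, and the medians of first disuse animals 1, 2 and 3 at the higher rows were 0.98, 0.11 and 0.45. First disuse limb 2 thus lay near its own right limb, and first disuse limb 3 lay between it and limb 1. The right limbs of first disuse animals 2 and 3 were also shifted: at the 2798 rows their median distance from the mean of the other 8 control limbs was 0.340 and 0.413, where the other 7 control limbs had medians from -0.27 to -0.028. Set against the mean of all 9 control limbs, the median for first disuse limbs 1, 2 and 3 was 1.07, 0.353 and 0.875. For each gene that the text names, the value without first disuse limb 2 is therefore given where it moved by more than 1.5 times or passed, and the plot of list medians gives it for every gene list. Over 10615 rows the median SD of the log2 level was 0.352 among the first disuse limbs and 0.295 among the repeated disuse limbs, and among the right limbs of the same animals it was 0.310 and 0.278. First disuse limb 2 lay farthest from the median of its group at 41.1% of these rows, and repeated disuse limb 1 from that of its own at 41.5%.

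**Figure D1:**
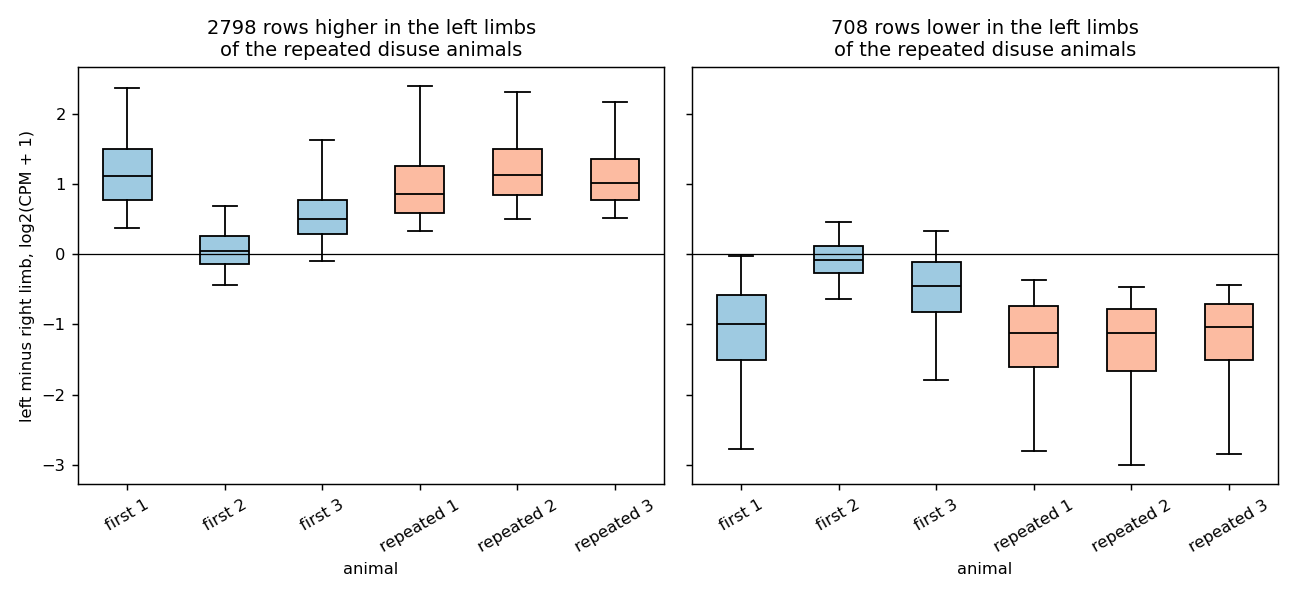
Left minus right difference of log2(CPM + 1) in each of the 6 animals, at the rows that were higher (2798) or lower (708) in the left limb of the repeated disuse animals. Boxes show quartiles with the median and whiskers the 5th to 95th percentile over rows. The boxes of first disuse animal 2 sit around 0, with medians of 0.047 and -0.079.

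Few rows passed between the repeated and the first disuse limbs, and with 3 limbs a group this does not show that few genes differ. Of 14031 rows tested with limma on log2(CPM + 1), 5 passed (0.0356%), a row passing where the fold was 1.2 or more and the p adjusted by Benjamini-Hochberg was 0.05 or less. The paper, with DESeq2 at the same fold and adjusted p, reports more genes for this comparison, most of them lower. Lmcd1, Trim72 and Mgst3 fell after repeated disuse (0.0214%), and Akap14 and Slc17a3, both near the limit of detection, had higher values (0.0143%), Slc17a3 having entered the test only through the repeated disuse limbs. At an unadjusted p of at most 0.05 there were 884 rows (6.3%), 401 higher (2.86%) and 483 lower (3.44%). At 985 rows (7.02%) the 3 and 3 limbs did not overlap, 391 higher (2.79%) and 594 lower (4.23%). The median log2 fold change (log2 FC, repeated minus first disuse) over all rows was 0.002, and 49.2% of all rows had a log2 FC below 0, which is the share to set beside each count of list members below or above 0. Where 3 and then 3 CPM values follow a gene below, they are those of first disuse limbs 1, 2 and 3 and of repeated disuse limbs 1, 2 and 3. Each left limb is a different animal, but the spread behind these p-values was estimated over all 18 limbs of the 9 TTX animals, with both limbs of an animal counted separately. Fitted on the 6 left limbs alone, 0 rows passed (461 at an unadjusted p of at most 0.05) and the smallest adjusted p was 0.9995, which ends the call of all 5. With the animal as a block, which sets each left limb against its own right limb, 0 rows passed (790 at an unadjusted p of at most 0.05, 5.63%), and the smallest adjusted p was 0.116. Leaving out first disuse limb 2 gave 7 rows (0.05%), all lower, of which Lmcd1 and Mgst3 were also among the 5. The others were Ddit4l2, Casq2, and Spink5, Tmem176b and Mapk13, which had means under 5 CPM in both groups and are named after their values were seen. Without limb 2 the log2 FC was -0.71 for Spink5 (adjusted p = 0.00453), -2.66 for the row of Tmem176b that passed and -0.88 for Mapk13 (adjusted p = 0.0475 for both). Leaving out other limbs also moved the count: 76 rows passed without first disuse limb 1, 27 without repeated disuse limb 1, 3 without first disuse limb 3 and 0 without repeated disuse limb 3. Between the right limbs of the same animals, 0 rows passed and 639 (4.55%) had an unadjusted p of at most 0.05, the smallest adjusted p being 0.938.

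**Figure D2:**
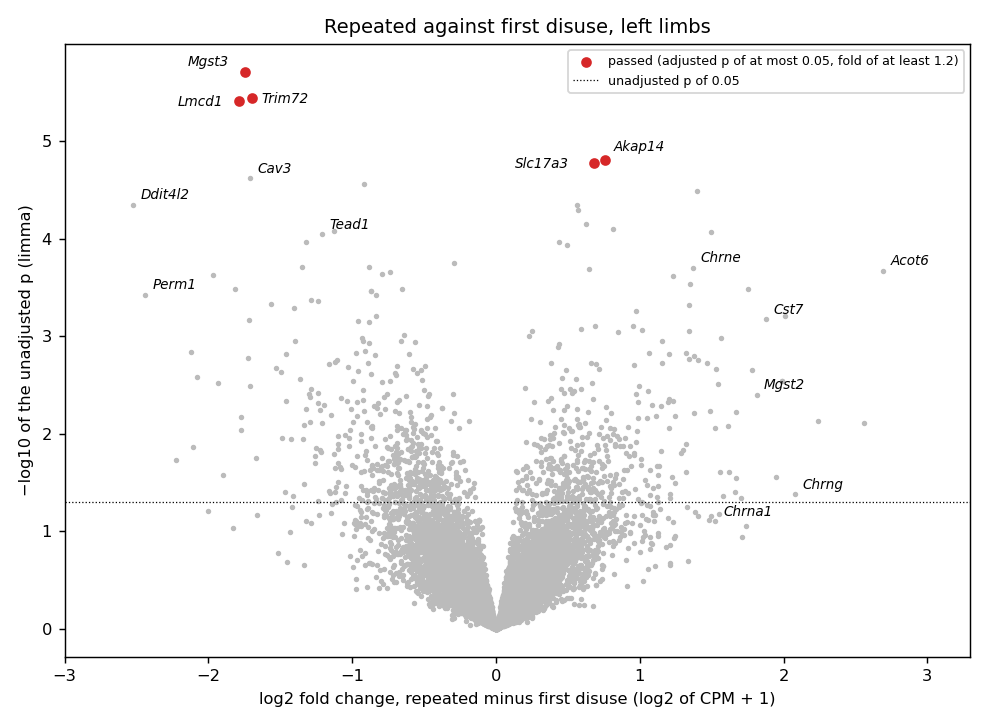
Log2 FC of repeated minus first disuse left limbs against -log10 of the unadjusted p for the 14031 rows tested. The 5 rows past the threshold are in red and some genes that the text names are marked, and most rows lie around a log2 FC of 0.

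Lmcd1 encodes a LIM and cysteine-rich domain protein of striated muscle that acts with GATA6 and calcineurin. In first disuse limbs 1, 2 and 3 it was at 100.4, 112 and 133 CPM, and in repeated disuse limbs 1, 2 and 3 at 22.5, 49.7 and 30.3 CPM. The groups did not overlap, and first disuse limb 2 sat between the other two of its group. First disuse limbs 1 and 2 lay within the range of the control limbs (58.2 to 132 CPM) and limb 3 just above it. All 3 repeated disuse limbs lay below every control limb, and the limbs taken at the recovery time point held 132 to 197 CPM. Lmcd1 (rn7 chr4:145393153-145452050) fell with a log2 FC of -1.79 (SE 0.28, adjusted p = 0.0181, limma), and without first disuse limb 2 the log2 FC was -1.81 (adjusted p = 0.0475). With the animal as a block it was -2.24 (adjusted p = 0.12), and after TMM rescaling -1.80 (adjusted p = 0.087), so neither passed. Within animals the left limb was above the right by 0.32, 0.93 and 0.32 on the log2 scale in the first disuse animals, and the left minus right values of the repeated disuse animals were -2.13, -1.39 and -1.62.

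Cav3, the muscle caveolin that coats sarcolemmal pits, is the row next to Lmcd1 on chromosome 4 (rn7 chr4:145582168-145598143), with 130118 bases between them. Its levels were 57.7, 84.9 and 64.7 CPM after first and 32.7, 16.5 and 15.04 CPM after repeated disuse. Here too the 3 repeated disuse limbs lay below all first disuse and all control limbs (53.5 to 140.3 CPM). The log2 FC of -1.71 (SE 0.31) had an adjusted p of 0.055 and just missed the threshold. Among rows with a mean of at least 10 CPM the adjusted p was 0.0336. It was 0.17 without first disuse limb 2 (log2 FC -1.56), 0.17 after TMM rescaling and 0.55 with the animal as a block (log2 FC -1.97). The rows that follow on this chromosome did not pass either. Oxtr averaged 0.099 CPM over the 6 limbs, Rad18 1.11 CPM and Setd5 50.2 CPM.

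Trim72 is the muscle ubiquitin ligase that nucleates membrane repair. First disuse limbs 1, 2 and 3 held 316, 337 and 300 CPM and repeated disuse limbs 1, 2 and 3 held 147, 97.6 and 64.3 CPM. The first disuse limbs were close to each other and the repeated disuse limbs more widely spread, with no overlap, and every repeated disuse limb was below the control range of 320.5 to 609.9 CPM, as were, by less, first disuse limbs 1 and 3. Trim72 (rn7 chr1:182613753-182621614) fell with a log2 FC of -1.69 (SE 0.26, adjusted p = 0.0181). Without first disuse limb 2 the log2 FC was close (-1.65) and the adjusted p was 0.052, just outside the threshold. It was 0.77 with the animal as a block (log2 FC -1.49) and 0.087 after TMM rescaling.

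Mgst3 encodes a microsomal glutathione S-transferase with peroxidase activity. It was at 18.4, 41.4 and 27.5 CPM in first disuse limbs 1, 2 and 3 and at 7.75, 8.65 and 6.37 CPM in repeated disuse limbs 1, 2 and 3. First disuse limb 2 was the highest of the 6 and within the control range (35.7 to 56.98 CPM), while the other 5 limbs lay below it. Mgst3 (rn7 chr13:79526541-79547357) fell with a log2 FC of -1.75 (SE 0.26, adjusted p = 0.0181), and with -1.46 without first disuse limb 2 (adjusted p = 0.0475). The block gave -1.74 (adjusted p = 0.55) and TMM rescaling -1.74 (adjusted p = 0.087).

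The remaining pair that passed rests on few reads. Akap14, an anchoring protein of protein kinase A known from cilia, was at 0, 0.0768 and 0.455 CPM after first and 1.09, 1.06 and 0.763 CPM after repeated disuse, and 1 read is worth at most 0.053 CPM in these libraries. Slc17a3, a transporter of urate and other organic anions, was listed at 0 in all 3 first disuse limbs and at 0.293, 1.03 and 0.573 CPM in the repeated disuse limbs. The groups overlapped for neither gene, and no control limb exceeded 0.297 CPM for Akap14 or 0.173 CPM for Slc17a3. Both passed with an adjusted p of 0.0467. Outside the repeated disuse limbs only 2 limbs were above 0 for Slc17a3, both of them control limbs, so it met the filter (above 0 in at least 3 of 18 limbs) only through the group where it was high, and its passing is given as a description and not as support for a rise. Neither gene passed without first disuse limb 2 (adjusted p = 0.14 and 0.11).

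**Figure D3:**
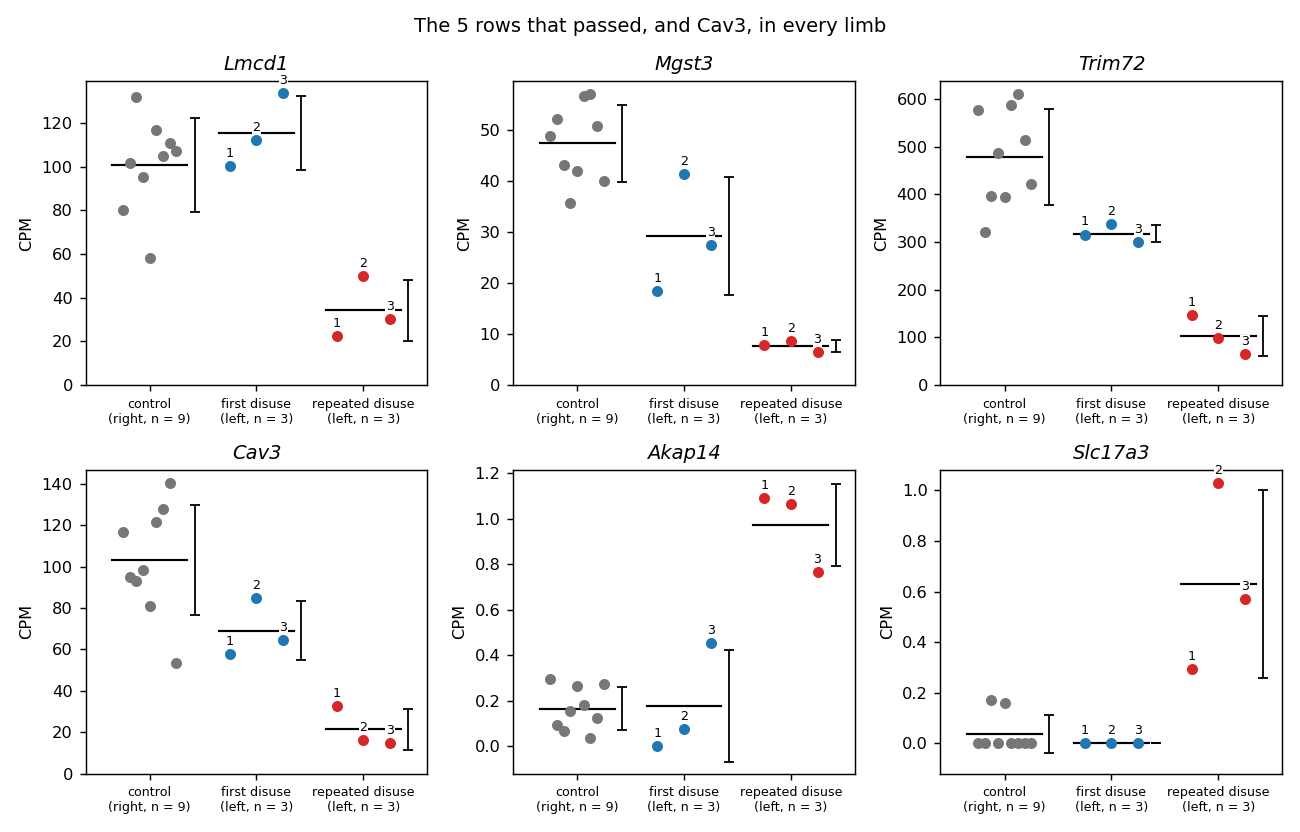
CPM of the 5 genes that passed and of Cav3 in each limb, with the limb number above each disuse point, a line at the group mean and a bar for the SD (n = 3, and n = 9 for control). For Lmcd1, Trim72, Mgst3 and Cav3 the 3 repeated disuse limbs lie under the 3 first disuse limbs, and for Akap14 and Slc17a3 above them.

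The 250 bases upstream of the start of Trim72, Lmcd1 and Cav3, and of Chrna1 and Chrng, a pair of acetylcholine receptor subunit genes described further on, are shown because the members of each set had log2 FCs of the same sign and E-boxes are the motif through which myogenic factors act. The sequences are RefSeq's, on assembly GRCr8 (the positions above are rn7, another build), 5' to 3' in the direction of the gene, with every E-box in capitals. The motif searched was CANNTG, whose pattern is the same on both strands, and no match overlapped another.

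Trim72 promoter: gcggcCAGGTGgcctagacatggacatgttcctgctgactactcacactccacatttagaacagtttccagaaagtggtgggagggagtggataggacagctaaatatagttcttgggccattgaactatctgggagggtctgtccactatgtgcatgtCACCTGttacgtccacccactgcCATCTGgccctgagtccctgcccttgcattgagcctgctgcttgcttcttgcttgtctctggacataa
Lmcd1 promoter: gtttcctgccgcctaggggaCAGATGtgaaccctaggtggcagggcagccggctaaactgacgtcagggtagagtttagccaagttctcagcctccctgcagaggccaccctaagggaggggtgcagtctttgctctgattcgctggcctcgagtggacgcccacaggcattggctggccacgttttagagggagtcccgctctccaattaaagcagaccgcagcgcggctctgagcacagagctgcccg
Cav3 promoter: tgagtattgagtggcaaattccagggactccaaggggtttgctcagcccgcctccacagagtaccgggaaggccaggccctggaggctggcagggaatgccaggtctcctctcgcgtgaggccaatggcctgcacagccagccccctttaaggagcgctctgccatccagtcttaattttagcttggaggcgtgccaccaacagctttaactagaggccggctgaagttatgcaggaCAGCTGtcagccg
Chrna1 promoter: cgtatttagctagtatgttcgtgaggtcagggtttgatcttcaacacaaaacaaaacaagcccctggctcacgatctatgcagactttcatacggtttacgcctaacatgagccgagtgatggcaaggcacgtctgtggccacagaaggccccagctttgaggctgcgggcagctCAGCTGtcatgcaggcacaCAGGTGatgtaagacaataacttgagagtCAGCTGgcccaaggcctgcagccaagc
Chrng promoter: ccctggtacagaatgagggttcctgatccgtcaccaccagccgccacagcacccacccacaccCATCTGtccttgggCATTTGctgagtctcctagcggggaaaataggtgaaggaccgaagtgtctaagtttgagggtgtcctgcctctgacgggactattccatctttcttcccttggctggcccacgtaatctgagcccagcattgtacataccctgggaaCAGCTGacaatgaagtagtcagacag

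Trim72 (chr1:192043970-192044219, plus strand) holds 3 E-boxes, which start 245, 91 and 68 bases before the gene. Lmcd1 (chr4:146948743-146948992, plus strand) holds 1, far from the start at 230 bases, and Cav3 (chr4:147137743-147137992, plus strand) holds 1 that starts 13 bases before it. Chrna1 (chr3:78877354-78877603, minus strand) holds 3, the nearest 27 bases before the start, and Chrng (chr9:95325734-95325983, plus strand) also holds 3, the nearest 26 bases before it. The window of Mgst3, not printed, holds 0. Of 33469 such windows in the reference, 65.5% hold at least 1 E-box and 11.6% at least 3, so 1 match is common. A match is a run of letters and not a measured binding site.

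With 1 row per symbol, rows with an unadjusted p of at most 0.05, no overlap and at least 10 CPM in a group were 80 higher and 146 lower, and those with the lowest log2 FCs come first. Their share of the rows that reach 10 CPM is not given here. Over all rows tested, at any level, 2.79% were higher and 4.23% lower without overlap. In several of those named here the groups parted with first disuse limb 2 at the control level and far above the other two of its group. Ddit4l2, a relative of the mTORC1 inhibitor REDD1, was at 16.7, 93.98 and 10.5 CPM after first and 3.64, 3.69 and 3.66 CPM after repeated disuse. Its 3 repeated disuse limbs were nearly equal, and first disuse limb 2 alone reached the control range (63.1 to 120.5 CPM). The log2 FC was -2.52 (adjusted p = 0.0633), and without limb 2 the smaller log2 FC of -1.61 passed (adjusted p = 0.021). Also without limb 2, it did not pass after TMM rescaling (adjusted p = 0.15, limma) or with the block without animal 2 (adjusted p = 0.77). Perm1, a muscle regulator of oxidative genes that works with PGC-1 and ERR, was at 19.3, 85.2 and 42.2 CPM after first and 9.76, 7.06 and 4.47 CPM after repeated disuse, with control limbs at 65.9 to 335 CPM. All 3 first disuse limbs stood above all 3 repeated disuse limbs, also without limb 2, with a log2 FC of -2.44 (SE 0.56, adjusted p = 0.14) and -1.93 without it.

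Itgb1bp2, the gene of melusin, a stretch-linked chaperone that binds integrin beta 1, was an exception in which limb 2 did not stand out. It was at 31.1, 32.4 and 30.9 CPM after first and 6.53, 15.3 and 6.79 CPM after repeated disuse (log2 FC -1.72, -1.70 without limb 2, adjusted p = 0.20). Tead1, a transcription factor of the Hippo pathway that also binds muscle promoters, had the same shape at low level, with 4.15, 4.34 and 5.01 CPM and 1.63, 1.06 and 1.45 CPM (log2 FC -1.21, adjusted p = 0.0791). Pkp2, a desmosomal plakophilin picked after its values were seen because it passed among rows with a mean of at least 10 CPM, was at 29.3, 26.7 and 28.05 CPM and 12.02, 17.5 and 13.97 CPM (log2 FC -0.92, adjusted p = 0.055). In these 3 genes the 3 first disuse limbs agreed closely and all lay above the repeated disuse limbs.

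In Masp1, a protease of the lectin complement pathway, the values were 17.3, 75.7 and 19.3 CPM and 9.09, 6.31 and 7.90 CPM (log2 FC -1.81, -1.15 without limb 2). Cmbl, a hydrolase, was at 6.56, 74.5 and 15.2 CPM and 6.03, 2.13 and 4.12 CPM (log2 FC -2.12, -1.20 without limb 2), so that first disuse limb 1 was close to repeated disuse limb 1. Smtnl1, a smoothelin-like regulator of contraction, was at 78.6, 298 and 150.2 CPM and 47.9, 27.2 and 33.4 CPM. Its log2 FC of -2.08 was -0.90 with the animal as a block, and that between the right limbs was -1.18 (adjusted p = 0.94). Arrdc2 and Nfil3, the first an arrestin-domain gene that glucocorticoids raise and the second a repressor tied to the clock, show the limit of the no-overlap criterion. For Arrdc2 the values were 7.78, 109 and 43.04 CPM and 6.41, 6.14 and 6.91 CPM, and for Nfil3 5.10, 44.6 and 23.8 CPM and 4.86, 5.07 and 4.50 CPM. Without limb 2 the log2 FC of Arrdc2 was -1.40 in place of -2.22, and that of Nfil3 -1.08 in place of -1.71. With the block the log2 FC of Nfil3 was -1.04, and -0.40 without animal 2. First disuse limb 1 was at the level of the repeated disuse limbs in both, and the 9 control limbs ran from 10.6 to 192 CPM for Arrdc2. None of these 5 passed, the adjusted p ranging from 0.14 for Masp1 to 0.65 for Arrdc2.

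At the high end, Acot6, a peroxisomal acyl-CoA thioesterase, had the highest log2 FC, 2.69 (SE 0.59, adjusted p = 0.12), with 5.85, 0.692 and 3.87 CPM after first and 8.08, 36.3 and 44.01 CPM after repeated disuse. Repeated disuse limb 1 stood close to the first disuse limbs and the other two far above. Cst7, an inhibitor of lysosomal cathepsins, was at 52.8, 38.8 and 27.5 CPM and 78.2, 218 and 174 CPM, and its log2 FC was alike with and without limb 2 (1.88, 1.89 without it, adjusted p = 0.20). Mgst2, a relative of Mgst3 that also makes leukotriene C4, had a log2 FC of the other sign, with 36.5, 10.4 and 28.5 CPM and 66.99, 93.2 and 84.4 CPM and control limbs at 1.72 to 10.9 CPM (log2 FC 1.81, adjusted p = 0.40). Akr1b8, an aldo-keto reductase, was at 4.39, 6.47 and 6.34 CPM and 26.4, 10.7 and 15.1 CPM, again with limb 2 inside its group (log2 FC 1.37, adjusted p = 0.28).

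In 4 further genes at the high end first disuse limb 2 was the lowest limb. Timp2, an inhibitor of matrix metalloproteinases, was at 83.5, 29.05 and 51.2 CPM and 88.8, 140.5 and 192 CPM (log2 FC 1.40, 1.02 without limb 2 and 0.79 with the block). Chrd, the BMP antagonist chordin, was at 29.8, 10.5 and 23.8 CPM and 52.4, 52.2 and 72.4 CPM against 2.14 to 15.4 CPM in control limbs. Tac4, a tachykinin precursor, was at 5.03, 0.461 and 4.82 CPM and 7.24, 9.04 and 14.4 CPM, and Adap2, an Arf GTPase-activating protein, at 64.1, 8.30 and 32.2 CPM and 75.9, 77.6 and 94.3 CPM. In each of these 4 genes first disuse limb 2 was in the control range, limbs 1 and 3 were above limb 2 and all repeated disuse limbs higher still, and the log2 FCs of Tac4 and Adap2, 1.55 and 1.61, became 0.87 and 0.84 without limb 2. No adjusted p of the 4 was under 0.30. Faah, a fatty acid amide hydrolase, was at 14.5, 1.96 and 4.51 CPM and 20.1, 19.8 and 35.3 CPM, and a second row named Faahl had the same values, coordinates and strand, so that only the symbol of this locus is uncertain.

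Acetylcholine receptor and synapse genes, which silenced fibres restart, had log2 FCs mostly above 0, and the spread among first disuse limbs was wide. Of 16 list members, 0 passed, 5 had higher and 1 a lower value at an unadjusted p of at most 0.05 (2.86% and 3.44% over all rows), and 13 had a log2 FC above 0 (median 0.43, and 0.41 without limb 2, beside 0.002 over all rows). Without limb 2 only Chrne, of the 5 higher members, kept an unadjusted p of at most 0.05 (0.0019, limma). Chrna1, the subunit that binds the transmitter, was at 938, 69.9 and 431 CPM and 561, 1307 and 1349 CPM. First disuse limb 2 was inside the control range (15.7 to 95.2 CPM), repeated disuse limb 1 lay between first disuse limbs 3 and 1, and the log2 FC of 1.70 became 0.65 without limb 2. Chrng, the subunit of the fetal receptor, gave 70.6, 4.46 and 18.6 CPM and 35.5, 89.6 and 173 CPM, so that repeated disuse limb 1 again sat between first disuse limbs 3 and 1 (log2 FC 2.08, 1.15 without limb 2 and 1.27 with the block, adjusted p = 0.75).

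Chrne, the subunit that replaces Chrng in the adult receptor, was the member whose limbs parted most cleanly, with 24.03, 9.80 and 9.86 CPM after first and 31.6, 31.6 and 46.7 CPM after repeated disuse. First disuse limbs 2 and 3 lay in the control range of 7.90 to 13.6 CPM and limb 1 above it. Its log2 FC was 1.37 (SE 0.30, adjusted p = 0.12) and 1.17 without limb 2. Chrnd and Chrnb1, the other muscle subunits, named after their values were seen, overlapped between groups. Chrnd was at 768, 90.4 and 529 CPM and 615, 1029 and 1304 CPM (log2 FC 1.49, 0.56 without limb 2), and Chrnb1 at 233, 96.8 and 189 CPM and 203, 204 and 244 CPM (log2 FC 0.41, 0.04 without limb 2 and 0.80 with the block). Lrp4, the agrin receptor, and Prkar1a, a regulatory subunit of protein kinase A, had log2 FCs of 0.92 and 0.64, which became 0.48 and 0.36 without limb 2. Unc5a, a netrin receptor, was the 1 member of the 3 below 0 that had an unadjusted p of at most 0.05, with a log2 FC of -0.998 and 1.73, 4.84 and 4.36 CPM after first and 1.17, 0.958 and 1.53 CPM after repeated disuse, where first disuse limb 1 was again the nearest to the other group.

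**Figure D4:**
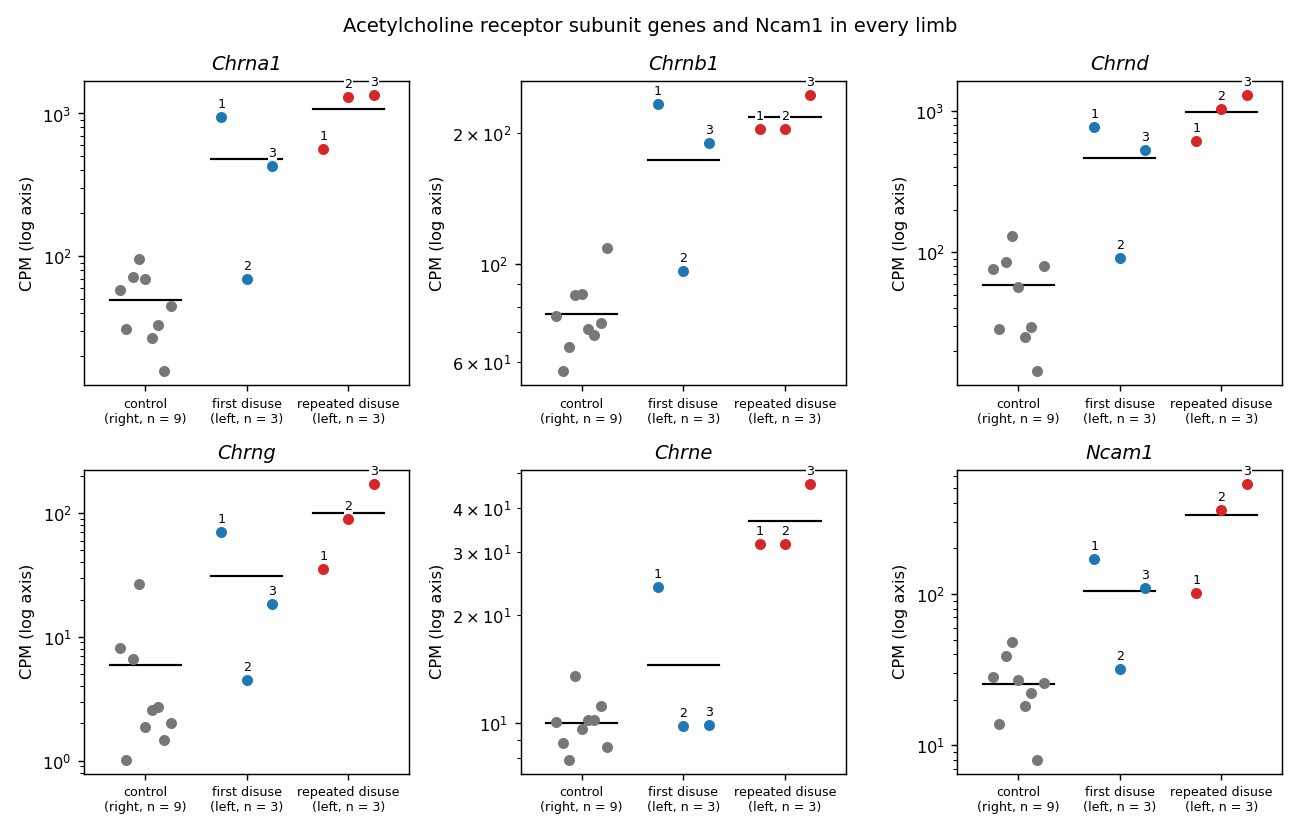
CPM on a log axis of the muscle acetylcholine receptor subunit genes and of Ncam1 in each limb, with the limb number beside each point and a line at the group mean (n = 3, and n = 9 for control). First disuse limb 2 lies among the control limbs in all 6 panels, and only for Chrne do all 3 repeated disuse limbs lie above all 3 first disuse limbs.

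Regulators of the denervation response and of myogenesis had medians above 0 that shrank without limb 2. Of 13 denervation regulators tested, 11 had a log2 FC above 0 and 0 passed, and the median of 0.61 became -0.05 without limb 2. Ncam1, the adhesion molecule that spreads along inactive fibres, was at 171, 31.7 and 109 CPM and 102, 361 and 537 CPM, and first disuse limbs 1 and 3 overlapped repeated disuse limb 1 (log2 FC 1.67, 0.98 without limb 2). Of 13 myogenic regulators and fusion genes 12 were above 0 (median 0.44, 0.11 without limb 2). Id3, an inhibitor of E-box binding, did not overlap, with 30.9, 12.3 and 27.9 CPM and 41.5, 40.6 and 36.6 CPM (log2 FC 0.81, 0.41 without limb 2). Cdh15, the M-cadherin of satellite cells and fibres, was the 1 member below 0, with 21.1, 22.5 and 37.97 CPM and 14.1, 9.19 and 11.9 CPM (log2 FC -1.12, -1.23 without limb 2, adjusted p = 0.30).

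Contractile genes varied widely among the limbs of a group. Myh4, the fast IIB myosin heavy chain, was at 16112, 54579 and 15162 CPM after first and 41667, 35100.2 and 42514 CPM after repeated disuse. Limb 2, at the level of the control limbs (47506 to 70312 CPM), overlapped the other group, and without it the log2 FC was 1.34 in place of 0.74 (adjusted p = 0.85). Myh1, the IIX chain, was at 15452, 50656 and 25207 CPM and 28205, 16820.5 and 19605 CPM, and its sign depended on limb 2 (log2 FC -0.36, 0.09 without it). How reads shared by the near-identical heavy chains were assigned is not given in the sources used here. Of 12 slow fibre genes, 9 were below 0, 2 of them at an unadjusted p of at most 0.05 (3.44% lower over all rows). Myl3, the slow essential light chain, was at 135, 196 and 207 CPM and 70.3, 83.03 and 69.8 CPM without overlap (log2 FC -1.24, adjusted p = 0.16). Casq2, the slow and cardiac calsequestrin, was at 111, 18.3 and 69.6 CPM and 13.4, 39.05 and 19.9 CPM, and since limb 2 was low its log2 FC of -1.22 became -1.95 without it, which passed (adjusted p = 0.0475). Also without limb 2, it did not pass after TMM rescaling (adjusted p = 0.15, limma) or with the block without animal 2 (adjusted p = 0.999).

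Oxidative metabolism genes had list medians a little below 0 that came close to 0 after TMM rescaling without limb 2. Of 24 genes of the TCA cycle and pyruvate entry, 19 were below 0 (median -0.16), of 15 ATP synthase subunits 14 (median -0.14), of 35 complex I subunits 26 (median -0.10) and of 26 subunits of complexes II to IV 18 (median -0.11). After TMM rescaling and without limb 2 the 4 medians ran from -0.05 (TCA) to 0.01 (complexes II to IV), and with the animal as a block they were -0.33, -0.16, -0.20 and -0.25. None of these genes passed, and 3 of the 24 TCA genes, all lower, and 0 in the other 3 lists had an unadjusted p of at most 0.05 (3.44% lower over all rows). Idh2, the mitochondrial NADP isocitrate dehydrogenase, was at 269, 511 and 421 CPM and 259.8, 204 and 224 CPM, and Idh3a, of the NAD enzyme, at 483, 629 and 516 CPM and 312, 436 and 339.8 CPM. In both the groups did not overlap and limb 2 was the highest of the 6. Slc25a4, which exchanges ADP and ATP across the inner membrane, was at 2344, 4022 and 2822 CPM and 1772, 1956 and 1581 CPM (log2 FC -0.76, -0.54 without limb 2). Vgll2, a TEAD cofactor of muscle among the 18 regulators listed, was at 57.3, 72.1 and 121 CPM and 62.7, 42.9 and 32.02 CPM, and first disuse limb 1 overlapped repeated disuse limb 1.

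Of 24 glycolysis and glycogen genes 21 were below 0, with a median of -0.41 that became 0.00 without limb 2. Ppp1r3c, which brings phosphatase to glycogen, was at 92.5, 769 and 133 CPM and 129, 72.3 and 91.4 CPM, so that only limb 2 parted from the others (log2 FC -1.15, -0.23 without it). Gys1, the muscle glycogen synthase, was at 258, 374 and 259 CPM and 160.1, 202 and 242 CPM without overlap.

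Protein breakdown genes had list medians that differed by fit. Of 19 atrogenes 10 had a log2 FC above 0 (median 0.03, -0.13 without limb 2). With the animal as a block the atrogene median was 0.37, and between the right limbs it was -0.37. Trim63, the ligase MuRF1, was at 662, 923 and 2389 CPM and 1414, 738 and 562 CPM, first disuse limb 3 being the highest. The log2 FC of Trim63 was -0.44, and 0.38 with the block. Sqstm1, the autophagy adaptor p62, was at 1349, 1356 and 1478 CPM and 2464, 1656 and 1992 CPM, without overlap but with a log2 FC of 0.53 (SE 0.41). Of 32 proteasome subunits 28 were above 0 (median 0.25, 0.17 without limb 2) and 1, Psmb5, had an unadjusted p of at most 0.05 (2.86% higher over all rows), with 223, 158 and 195 CPM and 295, 216 and 290 CPM. Between the right limbs the proteasome median had the other sign, -0.26, and with the animal as a block the left limb median was 0.49. Cytosolic ribosomal proteins also had a right limb median below 0 (-0.31), and their left limb median of 0.08 became 0.39 with the block and -0.05 without limb 2.

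Redox, stress hormone and mechanical stress genes split by member. Of 31 glutathione and antioxidant genes 17 were above 0 and 14 below (median 0.05, 0.31 with the block and -0.25 between the right limbs), with Mgst3 the 1 that passed. Nqo1, a quinone reductase that NRF2 controls, was at 20.5, 24.6 and 12.5 CPM and 35.6, 27.9 and 43.2 CPM (log2 FC 0.88, 1.08 without limb 2). Of 17 glucocorticoid and metallothionein genes 13 were below 0. Mt1, a metallothionein, was above 0, at 45.6, 18.3 and 90.8 CPM and 157, 105 and 129 CPM against 0.776 to 11.7 CPM in control limbs (log2 FC 1.58, 0.99 without limb 2), and Cebpd, a transcription factor that glucocorticoids raise, was at 4.25, 31.6 and 24.4 CPM and 4.98, 3.55 and 3.97 CPM (log2 FC -1.67, -0.90 with the block). For Cebpd first disuse limbs 2 and 3 were in the control range (7.33 to 52.7 CPM), and limb 1 and all repeated disuse limbs were below it. First disuse limb 1 was among the repeated disuse limbs there, while for Arrdc2 and Nfil3 it was just above them. Ddit4, the REDD1 gene, was at 19.7, 54.4 and 28.6 CPM and 8.21, 15.04 and 15.9 CPM. Its log2 FC of -1.26 was -0.23 with the block, and between the right limbs of the same animals it was -1.03 (adjusted p = 0.94). Bag3, the cochaperone of filament turnover, was at 332, 208 and 290.3 CPM and 472, 366 and 432 CPM (log2 FC 0.63), and Ankrd2, a stretch-responsive titin partner, was at 130.3, 28.9 and 562 CPM and 81.1, 41.9 and 11.2 CPM with limb 2 lowest of its group (log2 FC -1.90, -2.96 without it, adjusted p = 0.21).

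Membrane repair and matrix lists had few members with large values. Of 17 membrane repair and caveolar genes 12 were below 0 (median -0.12), and Trim72 and Cav3 were the members at an unadjusted p of at most 0.05 (3.44% lower over all rows). Srl, the sarcalumenin of the sarcoplasmic reticulum, from the calcium list, was at 1099, 1172 and 847 CPM and 518, 660.4 and 789 CPM without overlap (log2 FC -0.67). Of 26 collagen and matrix genes 15 were below 0 (median -0.06, -0.37 without limb 2, -0.51 with the block and 0.43 between the right limbs), with Timp2 above and Tnc, the matrix glycoprotein tenascin-C, below at an unadjusted p of at most 0.05 (3.91, 0.576 and 2.99 CPM and 0, 1.17 and 0.458 CPM for Tnc). Fdft1, the squalene synthase of sterol synthesis, was at 68.8, 94.2 and 89.05 CPM and 41.2, 47.1 and 55.96 CPM (log2 FC -0.79, -0.70 without limb 2, adjusted p = 0.12), and the other 15 lipid synthesis genes had unadjusted p-values above 0.05. Rpl3l, the muscle ribosomal protein that replaces Rpl3 in mature fibres, was at 209, 508 and 224 CPM and 170.2, 138 and 147 CPM (log2 FC -0.92, -0.51 without limb 2).

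Markers of cell types were measured in the same limbs. The 10 fibre markers summed to 93074, 182519 and 111040 CPM in first disuse limbs 1, 2 and 3 and 153868, 121050 and 136850 CPM in repeated disuse limbs 1, 2 and 3 (control 171368 to 228638), so that all 6 limbs read as skeletal muscle and first disuse limb 2 alone was in the control range. The 15 macrophage and leukocyte markers summed to 555, 178 and 376 CPM and 137, 320.3 and 379.9 CPM (control 122 to 439). All 15 were detected, 14 had a log2 FC below 0 and the median was -0.45 (-0.79 without limb 2). First disuse limb 1 was highest and repeated disuse limb 1 lowest in them, and the groups overlapped. The 10 endothelial markers were all below 0 (median -0.20, sums of 269, 284 and 297 CPM and 199, 238 and 289 CPM), and the 9 Schwann cell markers all above (median 0.16). The Schwann cell median was -0.12 with the animal as a block and 0.44 between the right limbs. The 8 satellite cell markers summed to 193, 126 and 392 CPM and 172, 209 and 137 CPM. The 6 erythroid markers summed to 483, 1479 and 492 CPM and 851, 342 and 429 CPM, limb 2 being the highest, and their median of -0.49 was 0.70 with the block and -1.19 between the right limbs. None of the marker genes passed, and the part of these cells in the gene results was not tested. In bulk muscle, fewer cells of a type and less RNA per cell cannot be told apart. The share of CPM held by the 10 most abundant rows was 13.0%, 25.6% and 15.6% in the first and 19.2%, 15.6% and 18.1% in the repeated disuse limbs, and its part was not tested either.

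**Figure D5:**
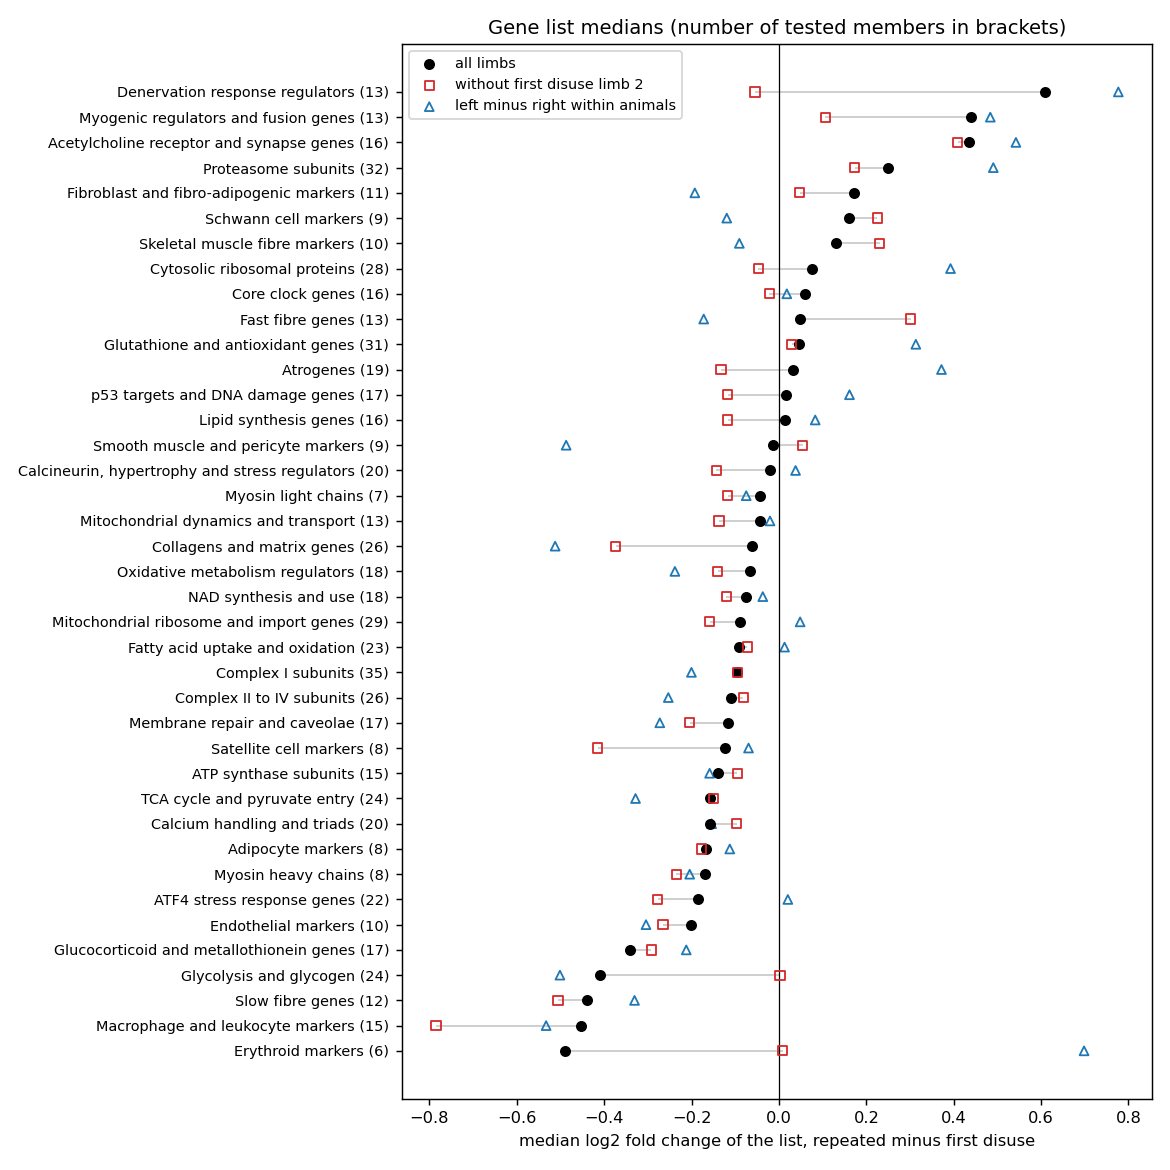
Median log2 FC (repeated minus first disuse) of the members of each gene list, from all 6 left limbs, without first disuse limb 2, and with the animal as a block. Most medians lie close to 0, and the denervation, glycolysis and erythroid lists are among those where leaving out limb 2 brings the median to about 0.

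The 6 limbs did not sort by group. Over 10615 rows, the root mean square difference of log2(CPM + 1) was 0.774 between first disuse limbs 1 and 2, 0.592 between 1 and 3 and 0.704 between 2 and 3. Among the repeated disuse limbs it was 0.591 between 1 and 2, 0.705 between 1 and 3 and 0.479 between 2 and 3. Between the groups, first disuse limb 1 was 0.423 from repeated disuse limb 2, the smallest of all 15 distances among these limbs, and 0.646 and 0.566 from repeated disuse limbs 1 and 3. First disuse limb 2 was 0.696, 0.778 and 0.805 from the repeated disuse limbs, and 0.395 from the mean control limb, where the other 5 limbs were 0.836 to 0.92 away. Distances within and between groups shared a range.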

How the data were processed

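RNA of the tibialis anterior was read from poly(A) directional libraries, prepared in randomized order, as paired-end reads. The labels give no batch. The authors filtered contaminants with Bowtie2 (2.2.5) and used STAR for alignment to rn7, both within Partek Flow. Which annotation was used and how reads were counted is not given in the sources used here. The deposited values are taken as CPM because each column sums to 1000000, although the authors name DESeq2's median of ratios. Of 27 value columns, 3 matched no sample and were not used. Low CPM values were whole multiples of 1 step in 87.7% to 89.3% of cases (tolerance 0.02), so reads were not treated as recovered and no count test was run. The step gave an inferred depth of 18.9 to 30.7, in units of 1000000 reads, over the 18 limbs.

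From 14271 rows, 28 exact duplicates were dropped, which left 13458 symbols, 513 of them with several rows, of which the row with the highest mean is given. Rows above 0 in at least 3 of the 18 limbs of the TTX animals (14031) were fitted on log2(CPM + 1) by limma-trend (limma 3.58.1 under R 4.3.3) in 4 groups (control, first disuse, recovery, repeated disuse). Fold changes are on this scale and understate those of low genes. Right limbs were compared in a fit of 6 groups, and left with right limbs in the 3 repeated disuse animals with the animal as a block. The threshold was a fold of 1.2 and a Benjamini-Hochberg adjusted p of 0.05. Scripts were tested on simulated data.

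The labels give both limbs of each animal, so same-animal limbs are pairs by design. The correlation of a left limb's deviation from its group mean with that of its right limb ranged from -0.19 to 0.61 over the 9 animals (10543 genes), and limma's estimate between limbs was 0.108.

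Named genes are rows past the threshold, the 12 highest and 12 lowest log2 FCs among rows with an unadjusted p of at most 0.05, no overlap and a mean of at least 10 CPM in a group, members of 39 gene lists with an unadjusted p of at most 0.05 (otherwise the 2 with the highest mean), and, among rows past the threshold without first disuse limb 2 with no overlap and a mean of at least 10 CPM in a group, the 10 highest and 10 lowest. The text does not print all of them. The members, lists and tests were chosen with earlier results of these data known. Alternatives covered the pseudocount, scaling, filters, the groups fitted, weights, the block and each limb left out. E-boxes were searched with Python 3.11.15. The sham limbs, other tissues and species were not analysed here.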

Additional observations from a re-analysis of the deposited data

Results flagged for a closer look

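Among the 9 control limbs, the gap from the highest or lowest limb to its nearest neighbour, divided by the range, was compared with Dixon's critical value of 0.493 for 66 named genes. Chance alone passes about 1 in 20 such groups, and 7 passed here. In 6 of them the limb set apart was the right limb of first disuse animal 3. It was the lowest for Masp1 at 35.05 CPM, Itgb1bp2 at 15.29 CPM, Slc25a4 at 2869 CPM and Srl at 683.7 CPM, and the highest for Trim63 at 1925 CPM and Bag3 at 293.7 CPM. For Acot6 it was the right limb of repeated disuse animal 3, the highest at 2.535 CPM. The part of these limbs in the block values of the same genes was not tested.

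In 3 genes that the text names, every first disuse animal had a left limb above its right limb and every repeated disuse animal a left limb below it. The share of all rows with this pattern is not given here. The 3 genes were named because their left limbs were lower after repeated disuse, which favours the pattern, so it is given as a description only. For Lmcd1 the difference between the arms in left minus right log2 level (repeated minus first) was -2.236, with an adjusted p of 0.116 in limma with the animal as a block. For Tead1 it was -0.9537 (adjusted p = 0.796) and for Pkp2 -0.7368 (adjusted p = 0.796), so none of the 3 passed as a difference of differences.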

How the results depend on the processing

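The 5 rows of the repeated against first disuse comparison depended on the processing. With the animal as a replicate block 0 passed, and 0 without first disuse animal 2 and with the block (577 at an unadjusted p of at most 0.05). Also 0 passed after TMM (904 unadjusted) or median of ratios rescaling, with only the 6 left limbs (461), with the 12 limbs of the 6 animals, and with limma's treat (268). A pseudocount of 0.1 gave 11, quantile normalization 9, sample weights 12, rows summed per symbol 8, and TMM without first disuse limb 2 gave 1. TMM with only the 5 other left limbs, added after seeing the data, gave 0. Leaving out each limb gave 0 to 76. In the right limbs, leaving out each limb gave 0 to 0. The left against right comparison of the repeated disuse animals (3506 rows, 2798 higher and 708 lower) gave 1873 with no filter, 890 to 5384 with each animal left out (5384 without animal 1, 2065 without animal 2, 890 without animal 3) and, after TMM, 1161 higher and 1242 lower.

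Of 2761 pairs of 1 of 66 named genes and a setting, 7 turned sign. The naming rule selects more genes than these 66, and others turned sign too. With the block the log2 FC of Atp5f1b went from 0.28 to -0.16 and that of Cox4i1 from 0.20 to -0.09. The log2 FC of Myh1 ran from -0.76 to 0.092 with each limb left out (0.092 without first disuse limb 2) and was 0.19 with TMM without it (all limbs, and left limbs alone) and 0.25 with the block without animal 2. That of Trim63 ran from -0.83 to 0.099 (0.099 without first disuse limb 3) and was 0.38 with the block and 0.45 with the block without animal 2. Lmcd1 passed in 31 of 42 settings, Trim72 and Mgst3 in 29 of 42, Slc17a3 in 12 of 40 and Akap14 in 10 of 40. In 2 separate settings, TMM rescaling alone and leaving out first disuse limb 2 alone, the medians of 39 of 39 lists moved by less than the spread between limbs. With the block 12 moved by more. The causes of these shifts were not tested. Depth limits Akap14 and Slc17a3, where 1 read is worth up to 0.053 CPM.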

Other observations

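In the gene groups not yet described, Lmcd1, a member of the calcineurin list, was the 1 gene past the threshold. At an unadjusted p of at most 0.05 were 3 of 7 myosin light chains, 3 of 20 calcium handling genes, 3 of 20 calcineurin and stress regulators and at most 1 member of each other list named here and in the next paragraph, beside 6.3% of all rows. The log2 FC was below 0 in 20 of 29 mitochondrial ribosome and import genes (median -0.09), and Timm17a, a channel subunit of the inner membrane translocase, was at 138, 138 and 129 CPM after first and 118, 106 and 94.05 CPM after repeated disuse, without overlap (log2 FC -0.35, -0.20 with the block). Of NAD genes it was below 0 in 10 of 18, and Nmnat1, the nuclear NAD synthase, was at 44.1, 46.2 and 54.7 CPM and 31.7, 40.1 and 33.9 CPM, without overlap. Its log2 FC of -0.45 was -0.08 with the animal as a block, and between the right limbs it was -0.37 (adjusted p = 0.94, limma). For p53 and DNA damage genes it was below 0 in 8 of 17, where Gadd45g, a growth arrest gene, was at 6.22, 79.4 and 15.6 CPM and 7.45, 3.87 and 4.85 CPM, with limb 2 far above the rest (log2 FC -1.78, -0.82 without it). Pdk2, a kinase that closes pyruvate entry, was at 257, 616 and 442 CPM and 215, 237 and 307 CPM (log2 FC -0.72, -0.43 without limb 2). Mylk2, the kinase of the fast regulatory light chain, was at 165, 1279 and 219.9 CPM and 164, 130.2 and 227 CPM, and its log2 FC of -1.08 became -0.17 without limb 2. Myl4, the embryonic light chain, did not overlap, with 17.6, 14.98 and 18.2 CPM and 31.4, 24.6 and 21.4 CPM.

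Over all rows tested 49.2% had a log2 FC below 0. Values below 0 were counted in 16 of 23 fatty acid oxidation genes, 14 of 22 ATF4 targets, 7 of 16 clock genes, 13 of 20 calcium handling genes, 8 of 13 mitochondrial dynamics genes, 10 of 20 calcineurin and stress regulators, 4 of 8 myosin heavy chains and 6 of 13 fast fibre genes. They were counted in 3 of 11 fibroblast, 5 of 9 smooth muscle and 7 of 8 adipocyte markers. Among the lists named here and in the paragraph before, the median turned sign with the animal as a block in 6, from -0.09 to 0.01 for fatty acid oxidation, -0.19 to 0.02 for ATF4 targets, -0.09 to 0.05 for mitochondrial ribosome and import genes, -0.02 to 0.04 for calcineurin and stress regulators, 0.05 to -0.17 for fast fibre genes and 0.17 to -0.19 for fibroblast markers. The median over all rows itself moved from 0.002 to 0.07 with the block. The block medians of fatty acid oxidation, ATF4 targets, mitochondrial ribosome and import genes and calcineurin and stress regulators still lay below it.

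Ldb3, which encodes a Z-disc protein with several isoforms, was chosen after its values were seen because it has 5 rows that differ in size. Their log2 FCs were -1.97, -1.41, -1.10, -0.99 and -0.59. In the row with the lowest value first disuse limb 2 was at 497 CPM and limbs 1 and 3 at 95.9 and 149 CPM, with 66.7, 48.6 and 34.998 CPM after repeated disuse, and without limb 2 its log2 FC was -1.29. In the row at -1.41 limb 2 did not stand out: first disuse limbs held 20.7, 15.7 and 19.4 CPM and repeated disuse limbs 5.41, 7.05 and 6.67 CPM. None of the 5 passed (smallest adjusted p = 0.117, limma), and how reads were split between these overlapping rows is not given in the sources used here.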
